A study of Mus musculus with 8 samples.

Results

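The 9 genes described here, Fn1, Postn, Tnc, Tnxb, Sparc, Sparcl1, Spp1, Tgfbi and Cthrc1, encode provisional matrix and matricellular proteins outside the CCN and thrombospondin families. They were chosen by gene name from the 54532 genes of the count and FPKM tables, and each name matched 1 row. The tables hold mouse cardiac fibroblasts of the C57BL/6 strain at passage 2, in 4 libraries transfected with a plasmid for HA-tagged murine thrombospondin-4 (pAAV.CMV.SV40.THBS4-HA.SV40(polyA), here TSP-4 libraries) and 4 with an empty plasmid (pAAV-CA, here control libraries). Both groups were kept for 12 h in standard medium free of antibiotics and for 24 h without serum, and poly(A) RNA was sequenced. The titles lettered the libraries A to D in both groups and called the controls non-stimulated, and neither animal, age, sex nor culture is given for a letter. The 2 plasmids are differently named constructs, so the comparison is one between plasmids and not of Thbs4 alone.

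Fibronectin lays down the first, provisional scaffold of a healing tissue, on which fibroblasts attach through integrins and assemble collagen. Matricellular proteins such as periostin, tenascin-C, SPARC and osteopontin bind collagen, growth factors and cell surface receptors rather than bearing load, are low in the resting adult heart and are known to appear in injured or overloaded myocardium. Many are known targets of TGF-beta, and thrombospondin-4 belongs to the same broad class.

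Depth was 17123735 to 22530947 counts per library, and the 9 genes together took 1.08% to 1.54% of them. Thbs4, the gene on the plasmid, had 25754 to 38063 counts in TSP-4 libraries and 2 to 11 in control libraries. All 11 fibroblast markers examined were above the expression filter, and their summed level was 10071 to 14983 CPM (counts scaled to library size with TMM factors) in TSP-4 libraries and 9878 to 15328 CPM in control libraries. All 15 macrophage markers were also above the filter, with a summed level of 343 to 1968 CPM in TSP-4 libraries and 377 to 1586 CPM in control libraries. The 5 epicardial and mesothelial genes summed to 449 to 775 CPM in TSP-4 libraries and 422 to 789 CPM in controls, and in letter A they stood above the macrophage markers. The endothelial, mural, cardiomyocyte and Schwann cell lists each summed to at most 84.6 CPM in every library.

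The stretches just upstream of the start site are shown for Spp1, Tgfbi, Postn and Tnc, the 4 tested members whose levels spread most among letters. RefSeq promoters were matched for 6 of the 9 members by symbol, namely Postn, Tnc, Tnxb, Sparc, Spp1 and Tgfbi, and not for Fn1, Sparcl1 and Cthrc1. Each line gives the 250 bases before the RefSeq start site nearest to the gene start in the files, 5′ to 3′ on the gene's strand, from GRCm38.p6. The stretches lie at chr5:104434861-104435110 on the plus strand for Spp1, chr13:56609336-56609585 on the plus strand for Tgfbi, chr4:64047016-64047265 on the minus strand for Tnc and chr3:54360857-54361106 on the plus strand for Postn. The RefSeq start of Tgfbi lies 63 bases downstream of the gene start in the files, so the end of its stretch falls within the gene as annotated there. Capitals mark matches on either strand to 1 of 4 motifs. These are TATAAA for the TATA-binding protein, TGANTCA for the factor AP-1, GAGGAAG for factors of the ETS family, and GGAATG for factors of the TEAD family.
Spp1: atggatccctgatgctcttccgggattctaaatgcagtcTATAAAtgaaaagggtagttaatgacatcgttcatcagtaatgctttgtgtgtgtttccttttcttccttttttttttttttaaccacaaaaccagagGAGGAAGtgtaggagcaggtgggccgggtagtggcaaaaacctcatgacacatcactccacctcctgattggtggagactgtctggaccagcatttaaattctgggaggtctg
Tgfbi: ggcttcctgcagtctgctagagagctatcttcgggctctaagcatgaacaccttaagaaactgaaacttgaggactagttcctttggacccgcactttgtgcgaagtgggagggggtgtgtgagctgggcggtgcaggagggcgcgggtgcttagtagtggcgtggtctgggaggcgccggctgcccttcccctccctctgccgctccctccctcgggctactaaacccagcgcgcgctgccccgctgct
Tnc: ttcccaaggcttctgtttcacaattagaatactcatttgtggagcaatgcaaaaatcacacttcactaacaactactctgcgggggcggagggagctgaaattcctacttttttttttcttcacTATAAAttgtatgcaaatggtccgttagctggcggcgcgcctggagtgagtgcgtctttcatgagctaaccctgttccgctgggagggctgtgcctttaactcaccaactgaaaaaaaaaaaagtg
Postn: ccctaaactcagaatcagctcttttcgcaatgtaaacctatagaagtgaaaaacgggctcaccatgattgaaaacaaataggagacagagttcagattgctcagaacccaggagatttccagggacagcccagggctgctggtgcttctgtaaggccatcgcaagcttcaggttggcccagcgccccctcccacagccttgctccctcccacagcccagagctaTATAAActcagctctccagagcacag

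Postn held TATAAA from base -26 to -21 before the start site, Tnc from -126 to -121 and Spp1 from -211 to -206. Among 32851 RefSeq promoters of the mouse, 12.4% held these letters in the same window. Spp1 also held GAGGAAG from -113 to -107, which 10.6% of promoters held. Of the other 2 matched members, Tnxb held TGANTCA from -55 to -49 (6.75% of promoters), and the window of Sparc, whose RefSeq start lies 3103 bases from the gene start in the files, had no match to the 4 motifs. GGAATG, present in 12.6% of promoters, was in none of the 6 windows, and the Tgfbi window had no match to the 4 motifs. A match is a description of letters and shows no binding.

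Per kilobase of gene length, Sparc and Fn1 stood far above the other members. Sparc, a secreted collagen-binding protein, lay between 1042 and 1379 FPKM (the deposited fragments per kilobase, scaled to library size) over the 8 libraries and ranked between 10 and 16 among all genes. Fn1, the main protein of the provisional matrix, lay between 510.1 and 853 FPKM, at ranks 26 to 52. The ranges of Sparc and Fn1 did not overlap each other or those of the other members.

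A middle tier held Spp1, Tnc, Cthrc1 and Postn. Spp1, which encodes osteopontin, lay between 45.6 and 221 FPKM, and Tnc, the tenascin of healing wounds, between 28.8 and 60.0 FPKM. Their ranges overlapped, but Spp1 was the higher in 8 of 8 libraries. Cthrc1, a secreted protein first found in injured arteries, lay between 23.1 and 53.6 FPKM and could not be ordered against Tnc, which was the higher in 6 of 8 libraries and the lower in both letter A libraries. Postn, the marker gene of activated cardiac fibroblasts, lay between 11.5 and 27.3 FPKM and below Cthrc1 in 8 of 8 libraries.

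Low levels were found for Tnxb, Tgfbi and Sparcl1. Tnxb, the tenascin that binds collagen in mature connective tissue, lay between 1.33 and 1.83 FPKM, and Tgfbi, a TGF-beta-induced relative of periostin, between 0.516 and 2.21 FPKM. Tnxb was the higher of this pair in 5 of 8 libraries, so their order was not settled. Sparcl1 (hevin), the closest relative of Sparc, lay between 0.0320 and 0.402 FPKM, below Tgfbi in 8 of 8 libraries.

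**Figure D1:**
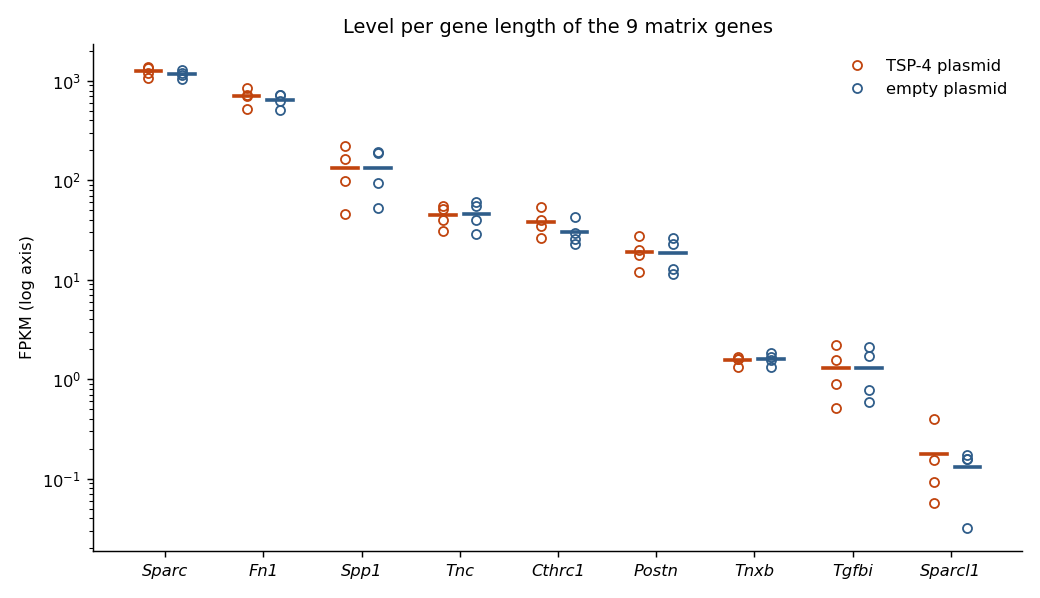
FPKM of the 9 genes on a log axis, ordered by their mean over 8 libraries, with open circles for libraries, bars for group means, TSP-4 libraries at the left and control libraries at the right of each gene. Sparc (1042 to 1379 FPKM) and Fn1 (510.1 to 853 FPKM) stand above the others, and Sparcl1 (0.0320 to 0.402 FPKM) below them.

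The plasmid comparison asked whether these transcripts differ in fibroblasts that overexpress thrombospondin-4. None of the 8 members that passed the low-count filter differed between the plasmids at an adjusted p under 0.05 (edgeR quasi-likelihood test, group as the single term, Benjamini-Hochberg over 14723 genes). In this comparison 0.00679% of all genes tested were called, which is 1 gene, Thbs4, and 1.6% had an unadjusted p under 0.05, against 0 of the 8 members. DESeq2 and limma voom also called 0 members. The edgeR fit held no term for the letters, so spread among letters counted as error in it. The SE of the Spp1 log2 fold change was 0.56 in this fit and 0.068 with the letter as a replicate block. The adjusted p in edgeR without the block was 0.999968 for each of the 8 members, and 4 lay above 0. Their median on the log2 scale was 0.02, beside 7354 of 14723 genes above 0 and -0.00014 for the median of all genes tested. For all 9 members the ranges of the groups overlapped, while 1.51% of genes had groups that did not overlap.

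Fn1 (chromosome 1, 71585520 to 71653200, minus strand, GRCm38) stood at 9944, 8267, 8378 and 6103 CPM in TSP-4 libraries A to D. The control libraries A to D held 8328, 8468, 7447 and 5985 CPM. The letter D libraries were the lowest in both groups, and the highest value was TSP-4 library A. The means were 8173 ± 1578 CPM in TSP-4 libraries and 7557 ± 1141 CPM in controls (SD, n = 4 each), and the difference on the log2 scale was 0.11 (SE 0.16, 95% interval -0.25 to 0.47). Within letters the TSP-4 plasmid library was the higher in 3 of 4. With the letter as a replicate block the interval of the log2 fold change was 0.0066 to 0.20, with an unadjusted p of 0.0383 and an adjusted p of 0.578 in edgeR. With this block, 8.12% of all genes had an unadjusted p under 0.05, and Fn1 was the 1 member of 8 that did. After adjustment the block called 0 members and 0.0136% of all genes, which is 2 genes.

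Periostin is a fasciclin-domain protein that fibroblasts secrete when they turn on matrix production. Postn (chromosome 3, 54361109 to 54391037, plus strand) stood at 153, 176, 238 and 104 CPM in TSP-4 libraries A to D, against 112, 234, 201 and 101 CPM in control libraries A to D. Letter D was the lowest in both groups, C was the highest in TSP-4 libraries and B in controls. The means were 168 ± 55.7 CPM in TSP-4 libraries and 162 ± 65.7 CPM in controls (SD, n = 4 each), and the interval of the log2 fold change ran from -0.73 to 0.84. The paired log2 differences were 0.45, -0.41, 0.25 and 0.05 for letters A to D, so the sign changed between letters. In fold terms the interval runs from 0.601-fold to 1.79-fold.

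Tenascin-C is a large glycoprotein assembled from several arms that loosens cell attachment at wound edges. Tnc (chromosome 4, 63959785 to 64047015, minus strand) stood at 242, 407, 425 and 310.2 CPM in TSP-4 libraries A to D, and at 223, 471, 431 and 314 CPM in control libraries A to D. Libraries B and C were high and A was low in both groups. The log2 fold change was -0.06 with an interval from -0.67 to 0.56, and with the replicate block from -0.13 to 0.07. The processed transcript 8030451A03Rik overlaps Tnc on the other strand with 30 to 63 counts per library, and whether the counting used strand is not given in the sources used here.

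Tnxb (chromosome 17, 34670535 to 34719815, plus strand) encodes tenascin-X, whose loss in humans causes a form of Ehlers-Danlos syndrome. It was among the most even members, at 19.7, 19.5, 16.2 and 20.5 CPM in TSP-4 libraries A to D and 20.4, 19.1, 16.5 and 22.4 CPM in control libraries A to D. Letter C was the lowest and letter D the highest in both groups. The log2 fold change was -0.05 (interval -0.29 to 0.20).

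Sparc (chromosome 11, 55394500 to 55423183, minus strand) stood at 5117, 4559, 5235 and 4094 CPM in TSP-4 libraries A to D, against 4556, 4884, 4420 and 3964 CPM in control libraries A to D. As for Fn1, letter D was the lowest in both groups. On the log2 scale the difference was 0.09 with an SE of 0.10 and an interval from -0.13 to 0.31, or 0.914-fold to 1.24-fold. Sparc and Tnxb were thus the members for which the interval without a block was narrowest.

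Sparcl1 (chromosome 5, 104079111 to 104113733, minus strand) was the member that did not pass the low-count filter, with 6, 8, 20 and 3 counts in TSP-4 libraries A to D and 2, 8, 10 and 9 counts in control libraries A to D. Control library A, with 2 counts, fell under the floor of 3 counts, which is 0.135 to 0.177 CPM at these depths. Its mean was 0.519 ± 0.457 CPM in TSP-4 libraries and 0.386 ± 0.196 CPM in controls (SD, n = 4 each; exact two-sided permutation test over libraries, p = 0.743, where the smallest p possible is 0.0286). Without the filter edgeR gave a log2 fold change of 0.41 with an interval from -0.78 to 1.61. That interval holds both no difference and a 2-fold higher level in TSP-4 libraries, which cannot be told apart at this depth.

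Osteopontin is a secreted phosphoprotein that binds αv integrins and CD44 and is made by macrophages as well as by activated fibroblasts. Spp1 (chromosome 5, 104435118 to 104441050, plus strand) stood at 75.0, 274, 364 and 162 CPM in TSP-4 libraries A to D. The control libraries A to D held 85.8, 317, 320.0 and 154 CPM. Letters B and C were high, D intermediate and A low in both groups. The means, 219 ± 127 CPM in TSP-4 libraries and 219 ± 118 CPM in controls (SD, n = 4 each), were almost equal, but the interval of the log2 fold change was wide, from -1.30 to 1.29. With the replicate block it ran from -0.19 to 0.12, that is from 0.876-fold to 1.09-fold.

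Tgfbi (chromosome 13, 56609523 to 56639562, plus strand) encodes an integrin-binding fasciclin-domain protein induced by TGF-beta. It had 43, 104, 141 and 60 counts in TSP-4 libraries A to D and 47, 111, 158 and 56 counts in control libraries A to D. These corresponded to 1.94, 5.93, 8.33 and 3.37 CPM in TSP-4 libraries and 2.21, 6.54, 8.05 and 2.92 CPM in controls. The order of the letters was A, D, B and C from low to high in both groups, as it was for Spp1. The log2 fold change was -0.02 (interval -1.27 to 1.24, and -0.30 to 0.28 with the replicate block).

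Cthrc1 (chromosome 15, 39076932 to 39087121, plus strand) encodes a secreted glycoprotein that limits collagen deposition and marks activated fibroblasts of the infarcted heart. Of the 8 members tested, it had the largest difference between the plasmids, and this did not pass. TSP-4 libraries A to D held 85.2, 63.4, 55.0 and 42.5 CPM of it, against 46.5, 68.2, 37.2 and 40.9 CPM in control libraries A to D. TSP-4 library A stood highest, and without it the log2 fold change was 0.16. The means were 61.5 ± 18.0 CPM in TSP-4 libraries and 48.2 ± 13.9 CPM in controls (SD, n = 4 each), and the difference on the log2 scale was 0.35 (SE 0.25, interval -0.23 to 0.94). The paired log2 differences were 0.87, -0.11, 0.56 and 0.05 for letters A to D. With the replicate block the interval, -0.26 to 0.96, was no narrower, unlike those of all other members tested.

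**Figure D2:**
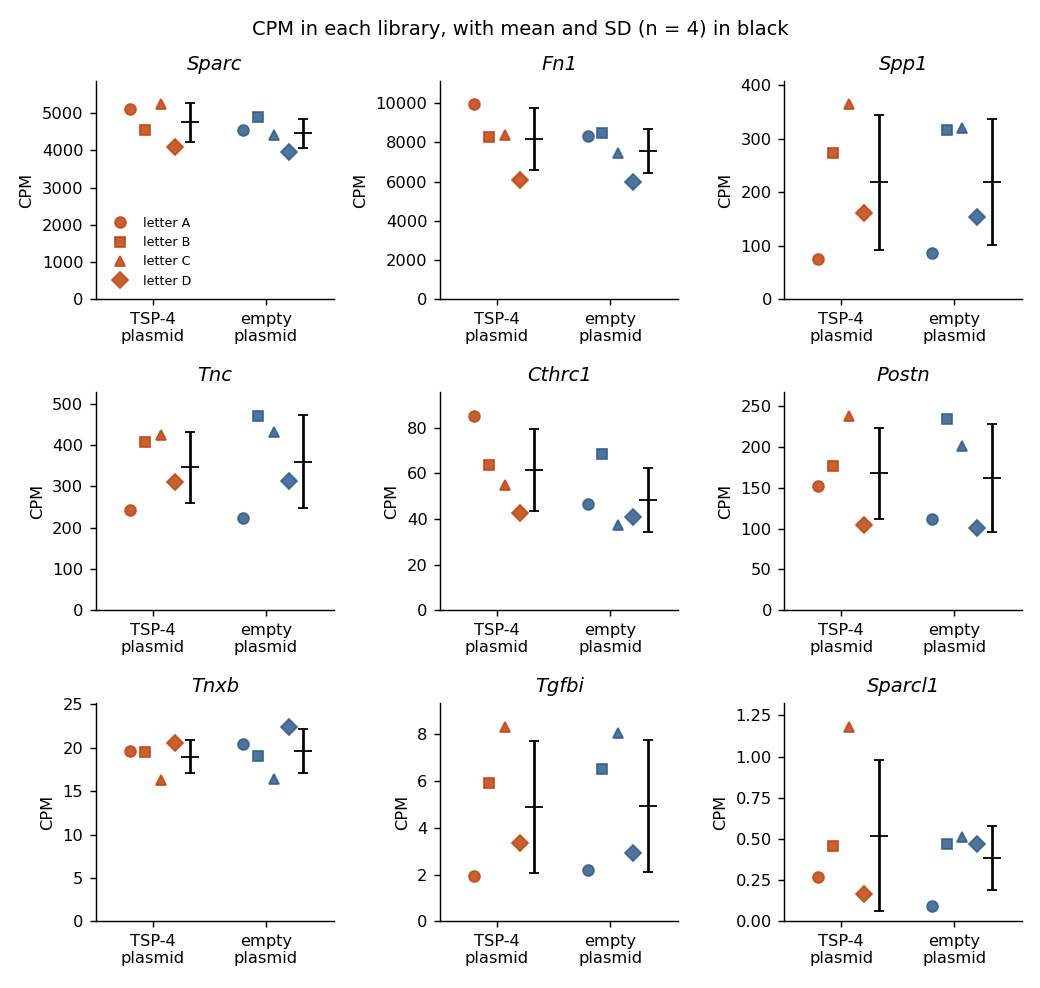
CPM of each of the 9 genes in the 4 TSP-4 libraries (left) and the 4 control libraries (right), with symbols for letters A to D and group mean ± SD in black. The groups overlap for all 9 genes, and symbols of 1 letter lie at similar heights in both groups for Tnc, Spp1, Tgfbi and Tnxb.

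**Figure D3:**
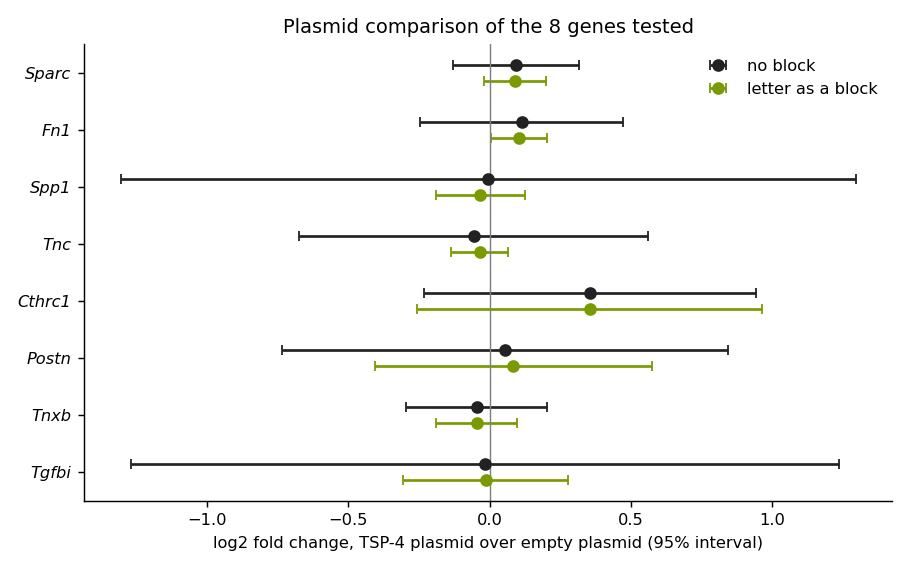
Log2 fold changes of TSP-4 over control libraries with 95% intervals for the 8 genes tested, without a block (black) and with the letter as a replicate block (green). All intervals without a block include 0, and the widest, for Spp1 (-1.30 to 1.29) and Tgfbi (-1.27 to 1.24), narrow to -0.19 to 0.12 and -0.30 to 0.28 with the block.

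Letters A to D were compared over both plasmids together. In edgeR's test of the 3 letter terms, fitted together with group, 6 of the 8 members differed among letters at an adjusted p under 0.05, beside 28.1% of all 14723 genes and 33.4% of the 9324 genes with a mean of at least 10 CPM. On simulated counts this letter test gave more false calls than its nominal share, so these counts of calls may be too high. A letter holds 2 libraries, 1 of each plasmid, and what it marks is not given, so differences among letters cannot be tied to a named source. Letter means spanned a median of 0.79 on the log2 scale over the 8 members, against 0.30 over all genes tested. In absolute terms the paired log2 differences between plasmids had a median of 0.13 for the members and 0.11 for all genes.

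Spp1 and Tgfbi spread most. Spp1 averaged 80.4, 296, 342 and 158 CPM in letters A to D, a 4.26-fold span (log2 2.09, adjusted p 6.7e-06 in edgeR). Tgfbi averaged 2.07, 6.24, 8.19 and 3.15 CPM, a 3.94-fold span (log2 1.98, adjusted p 1.4e-05 in edgeR). Only these 2 members were both called and at least 2-fold apart among letters, as were 7.16% of all genes. Tnc, also called, held 233, 439, 428 and 312 CPM in letters A to D, a 1.88-fold span (adjusted p 1.2e-06 in edgeR).

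Fn1 averaged 9136, 8367, 7913 and 6044 CPM in letters A to D, a 1.51-fold span with an adjusted p of 9.5e-05 in edgeR, but with both letter D libraries left out the span was 0.22 on the log2 scale and the adjusted p 0.106. Sparc spanned 1.20-fold with its low point also in letter D (adjusted p 0.0374), and Tnxb 1.31-fold with its high point there (adjusted p 0.0315), both in edgeR. Each call was lost in 4 of the 8 fits that left out 1 library, and in edgeR Sparc stood at an adjusted p of 0.933 without letter D and Tnxb at 0.495 without letter C. Spp1, Tgfbi and Tnc were called under all alternatives run.

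Postn and Cthrc1 were not called among letters, at adjusted p 0.0964 for Postn and 0.336 for Cthrc1 in edgeR. Postn averaged 132, 205, 219 and 102 CPM in letters A to D, a 2.14-fold span that came next after Tgfbi. Its largest paired log2 difference between plasmids was 0.45 in size, against 0.21 for Spp1, 0.20 for Tgfbi and 0.21 for Tnc. The result depended on the method. Postn was called in DESeq2 (adjusted p 0.0002), limma voom (0.00042) and limma on the log2 FPKM scale (0.0193). In edgeR it was also called with TSP-4 library B, control library B or both left out. Cthrc1 was called in limma voom (adjusted p 0.0312). Neither was called with RLE factors, with library totals or without the filter. Both were called in edgeR without the robust estimate of the spread, at adjusted p 0.00039 for Postn and 0.0252 for Cthrc1. That last alternative was chosen after the data were seen.

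**Figure D4:**
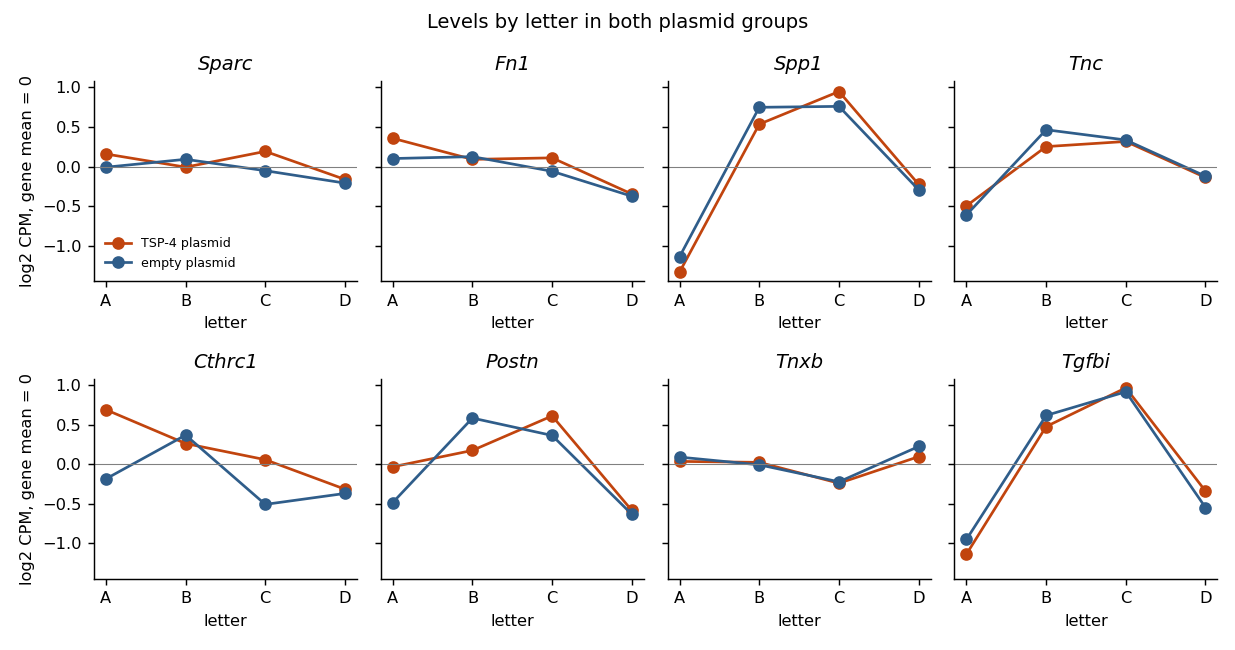
Log2 CPM of the 8 genes tested in letters A to D, centred on each gene's mean over the 8 libraries, for TSP-4 libraries (orange) and control libraries (blue). For Spp1, Tgfbi and Tnc both lines are low in A and high in B and C. For Cthrc1 and Postn the lines part in letter A (paired log2 differences of 0.87 and 0.45). They also part in letter C for Cthrc1 (0.56) and, with the opposite sign, in letter B for Postn (-0.41).

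The summed macrophage markers had the same order of letters as Spp1 and Tgfbi in both groups, with A lowest, then D, B and C. Their summed level was 343, 865, 1968 and 861 CPM in TSP-4 libraries A to D and 377, 1163, 1586 and 717 CPM in control libraries A to D. Letters D and B were thus nearly equal in TSP-4 libraries, unlike for Spp1 and Tgfbi. Lyz2, Adgre1, Csf1r, C1qc and Tyrobp were higher in TSP-4 library D than in B, and the other markers lower. Spp1 itself was nearly equal in control libraries B and C, and the marker Cd14 was higher in control library B than in C. Among letters 14 of the 15 were called, beside 28.1% of all genes tested, and 0 between plasmids. Lyz2 was the largest part of the sum, at 1020 CPM in TSP-4 library C and 837 CPM in control library C. None of the 15 was at 0. Spp1 per unit of this summed level lay between 0.185 and 0.317 in all 8 libraries, and Tgfbi between 0.00392 and 0.00686. The part of macrophages in the spread of Spp1 and Tgfbi was not tested, and fewer cells of a type cannot be told apart from less RNA per cell in such bulk samples. The summed fibroblast markers were also lowest in letter D, at 10071 CPM in TSP-4 libraries and 9878 CPM in controls, as were Fn1 and Sparc. Most of this sum came from 3 collagen genes. Col1a1, Col1a2 and Col3a1 stood at 4677, 2253 and 1597 CPM in TSP-4 library D, so the sum is largely one of matrix genes. By letter means 7 of the 11 were lowest in D, 2 (Pdgfra and Dcn) in A and 2 (Thy1 and Gsn) in C. Among letters 9 of the 11 were called, beside the same 28.1% of all genes. Their part in the spread of Fn1 and Sparc was likewise not tested.

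**Figure D5:**
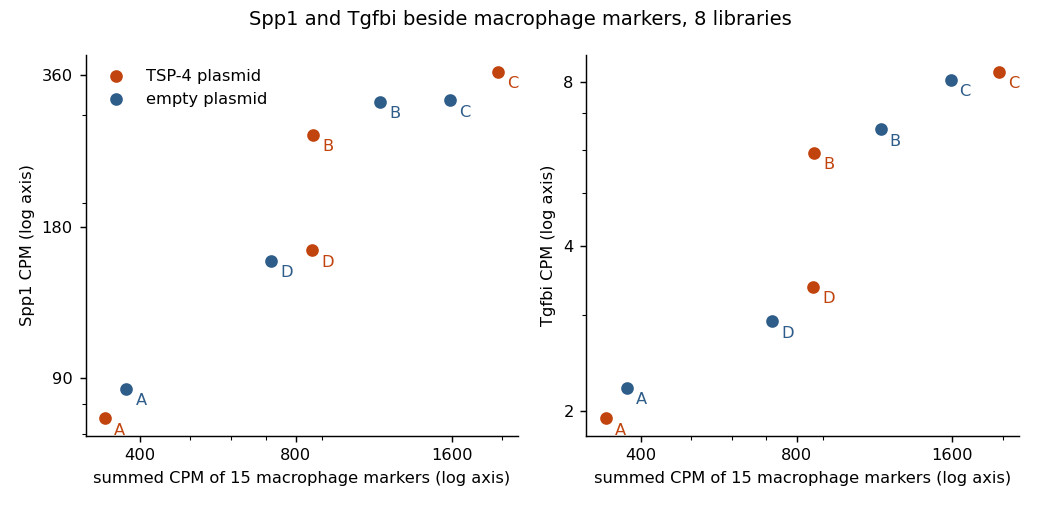
Spp1 (left) and Tgfbi (right) CPM against the summed CPM of 15 macrophage markers in 8 libraries, log axes, with letters beside the points, TSP-4 libraries in orange and control libraries in blue. Letter A lies lowest (343 and 377 summed CPM) and letter C highest (1968 and 1586) for both plasmids.

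The genes most like the members over the 8 libraries were sought among the 8995 or 8996 other genes that had a mean of at least 10 CPM and a name other than a provisional one (such as Gm or Rik names), by the root mean square distance between centred log2 CPM profiles. The libraries share letters, so these profiles hold fewer than 8 independent points, and the distances are descriptions. For Spp1 the 3 nearest were Slc15a3, a lysosomal peptide and histidine transporter (distance 0.121 on the log2 scale), the chemokine gene Ccl9 (0.138) and Il1rn, the interleukin-1 receptor antagonist (0.153). Slc15a3 stood at 15.5, 50.1, 89.7 and 38.1 CPM in TSP-4 libraries A to D and 19.2, 71.4, 71.2 and 35.0 CPM in control libraries A to D. For Tgfbi they were the complement receptor gene C5ar1 (0.134), Spp1 itself (0.164) and Lilr4b, a receptor gene of myeloid cells (0.172).

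Tnc lay nearest to Sipa1l2 (0.0617), to Glul, the glutamine synthetase gene (0.0632), and to H2-Q4 (0.0719), a class I gene with near-identical relatives whose counts are uncertain. Postn lay nearest to Slfn8 (0.0884), to the phosphofructokinase gene Pfkl (0.120) and to the interferon-inducible GTPase gene Tgtp2 (0.134), which has a near-identical copy. Cthrc1 lay nearest to the lipid transporter gene Abca9 (0.116), the fatty acid desaturase gene Fads2 (0.148) and Apcdd1 (0.151), a Wnt inhibitor. Abca9 stood at 21.7 CPM in TSP-4 library A, against 12.9 CPM in control library A. It was picked for its likeness to Cthrc1, so sharing this feature is part of the match and no separate observation. For Sparcl1 the nearest were Psmb9, Mx1 and Abca1 at distances of 0.347 to 0.384, and Sparcl1 had at most 20 counts in a library. Fn1, Sparc and Tnxb spanned less than 1 on the log2 scale and were not matched.

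Among relatives of the members, 5 of 14 genes passed the filter and 0 differed between plasmids in either direction. All 5 lay above 0, beside 7354 of 14723 genes, with a median log2 fold change of 0.15 against -0.00014 over all genes. With the block 1 of the 5, Smoc1, had an unadjusted p under 0.05 in edgeR (0.0227), beside 8.12% of all genes, and 0 passed adjustment. Among letters 4 of the 5 were called, beside 28.1% of all genes tested. Fstl1, a SPARC family glycoprotein of cardiac fibroblasts, was at 1598 ± 174 CPM in TSP-4 libraries and 1536 ± 178 CPM in controls. Smoc1, a SPARC-related calcium-binding protein, was at 71.4 ± 10.8 CPM in TSP-4 libraries and 64.6 ± 9.54 CPM in controls and Smoc2 at 2.54 ± 0.314 CPM in TSP-4 libraries and 2.22 ± 0.450 CPM in controls (SD, n = 4 each). Tnn and Stab1 also passed, and the 9 others, Tnr, Spock1, Spock2, Spock3, Stab2, Ibsp, Dmp1, Mepe and Dspp, were below the filter.

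All 15 genes for receptors of the members passed the filter, and 0 differed between plasmids, with log2 fold changes from -0.23 to 0.58 and a median of 0.00. Itgb1, the integrin chain shared by the main fibronectin receptors, was at 1724 ± 117 CPM in TSP-4 libraries and 1716 ± 53.5 CPM in controls. Sdc3, a syndecan, was at 787 ± 76.8 CPM in TSP-4 libraries and 781 ± 68.9 CPM in controls. Itga8, a partner of Itgb1 that binds osteopontin and tenascin-C, had the highest log2 fold change in the list, 0.58, with a level of 1.73 ± 0.654 CPM in TSP-4 libraries and 1.17 ± 0.316 CPM in controls, and Itgb3, a chain of the vitronectin receptor that also binds osteopontin, the lowest, -0.23, with a level of 24.2 ± 5.57 CPM in TSP-4 libraries and 28.4 ± 3.56 CPM in controls (SD, n = 4 each). In edgeR 0 of the 15 had an unadjusted p under 0.05 without the replicate block and 6 with it, Itga8 at 0.035 and Itgb3 at 0.0045 among them, beside 8.12% of all genes, and 0 passed adjustment. Among letters 12 of the 15 were called, which is 80% beside 28.1% of all genes tested.

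Of 18 TGF-beta ligands, receptors and responsive genes, 18 passed the filter and 0 differed between plasmids, with 10 above 0 and a median of 0.01 on the log2 scale. Cdkn2b, a cell cycle inhibitor, was at 124 ± 16.0 CPM in TSP-4 libraries and 108 ± 4.82 CPM in controls. Pmepa1, a feedback inhibitor of TGF-beta signalling, was at 394 ± 46.4 CPM in TSP-4 libraries and 433 ± 26.6 CPM in controls. Col1a1, the main chain of collagen type I, was at 5498 ± 610.3 CPM in TSP-4 libraries and 5196 ± 654 CPM in controls (SD, n = 4 each). Without the block the unadjusted p in edgeR was 0.0528 for Cdkn2b and larger for the others in the list. With the block 6 of the 18 had an unadjusted p under 0.05 in edgeR, beside 8.12% of all genes, and 0 passed adjustment. Of these, Cdkn2b at 0.0014, Tgfb3 at 0.0207, Tgfbr2 at 0.0307 and Tgfb2 at 0.039 were the higher in TSP-4 libraries. The rest of the 6, with Pmepa1 at 0.0064 among them, were the lower. Among letters 14 of the 18 were called, which is 77.8% beside 28.1% of all genes tested.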

How the data were processed

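Poly(A) RNA of 8 libraries was analysed from 2 tables. One, as deposited, gives raw read counts for each gene. The other gives FPKM, which the authors computed and deposited. HTSeq 0.6.1, TopHat2 2.0, CASAVA and Cufflinks 2.1.1, and the builds GRCm38.p6 and mm10, are listed in the submitters' processing notes without roles. How strand and multiply mapped reads were handled, and with which annotation, is not given in the sources used here. Members and lists were chosen with earlier results of these data known.

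Counts were tested with edgeR 4.0.16 in R 4.3.3 (quasi-likelihood, robust, TMM factors, expression filter at a minimum count of 10, Benjamini-Hochberg at 0.05), for group alone and for the letter terms beside group. The SE and 95% interval come from the fold change and the F statistic. On simulated counts the letter test found strong changes but gave more false calls than its nominal share, and so, to a lesser degree, did the fit with the block. No label ties a library to its own animal or culture, so the spread behind each p-value may be technical. Alternatives used DESeq2 1.42.0 and limma 3.58.1 (voom, and on log2(FPKM + 1)), RLE factors, library totals, no filter, the replicate block, and fits without single libraries or letters.

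Deviations from the group means of same-letter libraries correlated across genes, which are not independent, at r from 0.508 to 0.651. Between TSP-4 and control libraries of different letters r ran from -0.57 to 0.323. The letters were therefore taken as pairs in the paired differences and the replicate block, but not in the test with group alone. That pairing comes from the data, since no label explains the letters. Promoters were read from RefSeq. Pairs of libraries had a mean chi-square per gene of 4.88 or more, so none was a repeat of another within sampling noise. Named genes were the 9 members, in each list the 2 with the smallest p and the 2 with the highest mean CPM, and the 3 genes most like each member spanning at least 1 on the log2 scale. Of the genes this rule named, 1 is not reported here.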

Additional observations from a re-analysis of the deposited data

Results flagged for a closer look

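Of 92 values examined in groups of 4 libraries, 3 had 1 library far from the others, and chance flags about 5%. The value in brackets is the distance from the outlying library to the next one, divided by the whole range of its 4 libraries. Among TSP-4 libraries, Fstl1 was low in library D (0.889), at 1339 CPM with the next at 1667 CPM, and total counts were high in library A (0.897), at 22530947 with the next at 17681837. Among control libraries, Sparcl1 was low in library A (0.903), at 0.0939 CPM (2 counts), with the next at 0.469 CPM.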

How the results depend on the processing

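No member was called between plasmids under any alternative run, and with the letter as a replicate block 0 members and 0 listed genes were called. That replicate block gave 1 gene higher and 1 lower among all genes, and 4 higher and 3 lower in DESeq2. With the block and both libraries of a letter left out, 2 genes were higher and 3 lower without A, 3 higher and 1 lower without B, and 1 lower without C. Signs of small log2 fold changes turned. Spp1 was 0.0023 with RLE factors and 0.0027 in DESeq2, and with library totals Itgb1 was -0.0067 and Sdc3 -0.0011. With the block, Postn was -0.036, Spp1 0.017, Tgfbi 0.026 and Itgb1 -0.020 without letter A. Without B, Tnc was 0.026, Spp1 0.030 and Tgfbi 0.037, and without C Sdc3 was -0.025. Leaving out 1 library at a time gave ranges of -0.16 to 0.29 for Postn, -0.23 to 0.10 for Tnc, -0.12 to 0.026 for Tnxb, -0.36 to 0.29 for Spp1, -0.39 to 0.33 for Tgfbi, -0.013 to 0.13 for Fstl1, -0.042 to 0.032 for Itgb1, -0.034 to 0.068 for Sdc3 and -0.37 to 0.72 for the Sparcl1 ratio. Fn1 ran from 0.0061 (without TSP-4 library A) to 0.23, Sparc from 0.040 (without control library D) to 0.16 and Cthrc1 from 0.16 (without TSP-4 library A) to 0.57, all above 0.

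Among letters, DESeq2 called 2700 genes, against 4134 in edgeR. Postn was called in DESeq2 (log2 range 1.10), limma voom (1.09), on log2(FPKM + 1) (1.03), without letter B (1.09) and without the robust spread (1.10), and Cthrc1 in limma voom (0.65) and without the robust spread (0.66). Tnxb lost its call in DESeq2 (0.40), on log2(FPKM + 1) (0.24) and without letter C (0.15) or D (0.31). Sparc lost its call on log2(FPKM + 1) (0.27) and without letter A (0.25) or D (0.038), and Fn1 without letter D (0.22). Leaving out 1 library gave 1.00 to 1.31 for Postn, 0.33 to 0.45 for Tnxb and 0.23 to 0.36 for Sparc, with 4 of 8 calls lost for each of Tnxb and Sparc and 2 of 8 gained for Postn. The cause was not tested. Few counts limit Sparcl1 and, less so, Tgfbi.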
